A study of Mus musculus with 7 samples.

Results

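Genes of mitochondrial complex I were compared between cardiomyocytes of young and adolescent mice. They were taken by symbol, as rows of the deposited gene count table whose name starts with Nduf, and the 41 genes described here are of 23337 in all. Of these, 6 encode nuclear catalytic core subunits, 29 encode accessory subunits, 4 encode assembly factors with the Ndufaf prefix, and Ndufa4 and Ndufa4l2 lie outside the complex. The cells came from Rosa-Tom or Rosa-Cas9 mice that received the virus AAV9-cTNT-Cre on postnatal day 1, in which the cardiac troponin T promoter drives Cre, and were isolated on postnatal day 6 (P6, 4 libraries, P6a to P6d) or day 30 (P30, 3 libraries, P30a to P30c). All 7 libraries thus share the virus, the collagenase perfusion of the heart and the fluorescence-activated sort, and the allele of each mouse is not given. One protocol label speaks of collection at another age, and the ages in the titles, the age labels and the design text were used. Nothing states that the libraries came from separate animals, so a p-value here speaks only of library-to-library spread, which may be technical.

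Complex I takes electrons from NADH and passes them to ubiquinone while it pumps protons across the inner mitochondrial membrane, and the heart draws much of its ATP from this chain. Its arm in the matrix holds the N module, which oxidises NADH with a flavin and iron-sulfur clusters, and the Q module, which hands the electrons to ubiquinone. The arm in the membrane holds the proton pumps, whose core subunits are encoded in mitochondrial DNA and were not analysed here. Accessory subunits surround this core without carrying out the catalysis, and assembly factors help to build the complex and then leave it.

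The libraries held between 10594932 and 51427646 counts at P6 and between 15555469 and 19368717 at P30. The biological coefficient of variation was 18.3%. Markers of cardiomyocytes (8 of 8 present) summed to 63263 to 75604 CPM, the count scaled to the size of the library, at P6 and to 94252 to 96988 at P30. Markers of endothelial cells (6 of 6 present) summed to 66.1 to 118 CPM at P6 and 225 to 448 at P30, and those of leukocytes (6 of 6) to 1.73 to 3.71 and 9.82 to 29.0. Fibroblast markers (155 to 381 and 133 to 303 CPM) and smooth muscle and pericyte markers (937 to 2122 and 905 to 1754 CPM) overlapped between the ages in their sums. By the test described below, higher calls went to 4 of 8 cardiomyocyte, 6 of 6 endothelial and 4 of 6 leukocyte markers. Of the other single markers, 3 of 5 for smooth muscle and pericytes were called higher and 1 of 7 for fibroblasts lower. Among all tested genes 26.3% were higher and 27.8% lower. Red cell markers (3 of 5 present) summed to 0.0553 to 1.27 CPM at P6 and 0.112 to 0.452 at P30. Hba-a1 and Hba-a2 among them were at 0 in every library. The part of the other cell types in the results below was not tested.

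Complex I genes were called in both directions between P6 and P30, and the balance depended on how the counts were scaled. By edgeR's quasi-likelihood test, with p-values adjusted by Benjamini-Hochberg over all 12561 tested genes and a threshold of 0.05, 8 Nduf genes were higher at P30 and 9 were lower, of 40 tested. Over all tested genes 26.3% were higher and 27.8% lower, so neither share of the set was larger than that of all genes in this fit. With a trend on transcript length, described below, taken out of each library, 24 were higher and 5 lower, against 27.9% and 26.8% of all tested genes. With plain library totals in place of TMM factors, 4 were higher and 18 lower, against 19.2% and 37.1%, and the median of all tested genes was -0.20. Leaving out 1 library moved the number lower from 4 (without P30b) to 16 (without P6b). The median log2 fold change, P30 over P6, was -0.14 for the 40 genes and -0.02 for all tested genes. Of the core subunits 4 of 6 were higher and 0 lower, and with the length trend removed 5 and 0. Of the accessory subunits 2 of 28 were higher and 8 lower. The share higher was below the 26.3% of all tested genes, and the share lower was near the 27.8%. With the length trend removed the direction in the accessory subunits turned to 15 higher and 4 lower. CPM, scaled here by the trimmed mean of M values (TMM), did not overlap between the ages in 9 Nduf genes with P30 above P6 and in 7 with P30 below, against 27.8% and 28.8% of all tested genes. In bulk RNA a change in the number of transcripts per cell and a change in the mix of cells cannot be told apart.

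**Figure D1:**
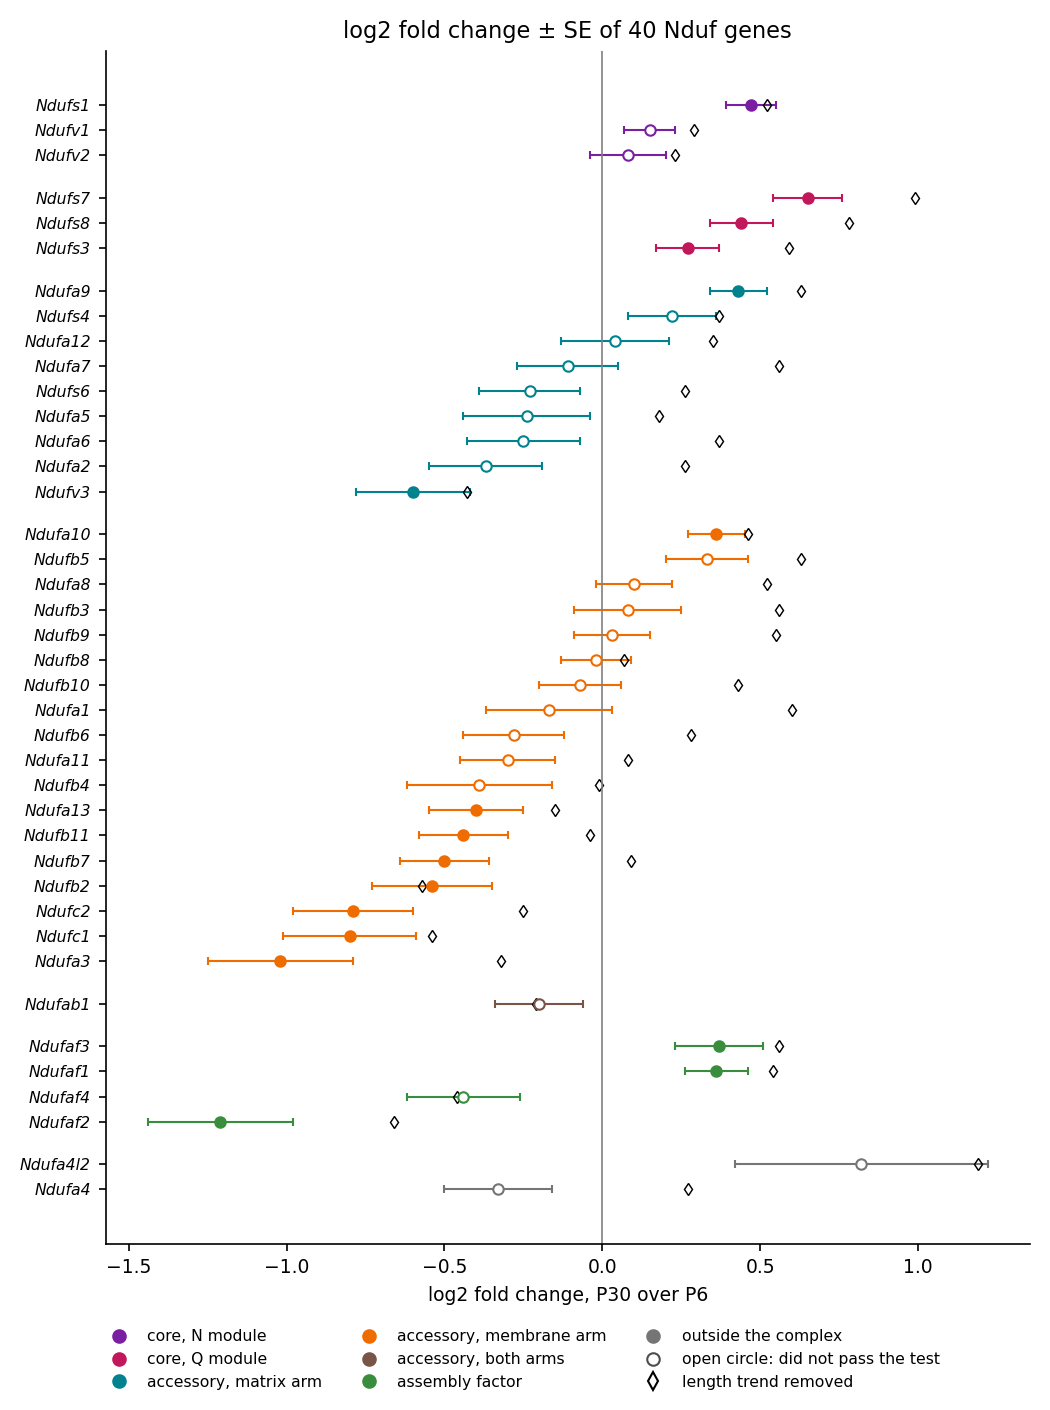
The log2 fold change (P30 over P6, horizontal axis) of each tested Nduf gene, with bars of 1 SE, ordered within its class; filled circles passed edgeR's test and open diamonds are the fit with the transcript-length trend removed. All 6 core subunits shown lie above 0 (0.08 to 0.65), and the tested accessory subunits run from -1.02 to 0.43.

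The Q module core subunits Ndufs3, Ndufs7 and Ndufs8 rose. All 3 were higher at P30, with a median log2 fold change of 0.44, and all P30 libraries were above all P6 libraries in each. Ndufs7 (chr10:80249121-80256794 in GRCm38), which carries the last iron-sulfur cluster before ubiquinone, had 566, 448, 495 and 544 CPM in the P6 libraries, in the order of their letters, and 772, 731 and 915 CPM in those of P30. The lowest P30 library was well above the highest P6 library. This was a 1.57-fold rise (log2 fold change 0.65 ± 0.11 SE, adjusted p = 0.00086).

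Ndufs8 (chr19:3908863-3912774), the ferredoxin-like subunit that relays electrons towards Ndufs7, had 357, 296, 307 and 368 CPM at P6 and 453, 425 and 475 CPM at P30. It rose 1.36-fold (0.44 ± 0.10, adjusted p = 0.0043). Ndufs3 (chr2:90894634-90904827), a structural core subunit without a redox centre, showed the smallest change of the 3, from 294, 236, 271 and 301 CPM to 336, 320 and 339 CPM. Its gap between the groups was narrow, and its 1.20-fold rise (0.27 ± 0.10, adjusted p = 0.041) lost its call when P6c, P30a, P30b or P30c was left out, with adjusted p up to 0.11, and with library totals (0.09, adjusted p = 0.39). A processed pseudogene, Gm12251, matches 75.7% of the Ndufs3 transcript at 97% identity or more, so its count is uncertain.

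**Figure D2:**
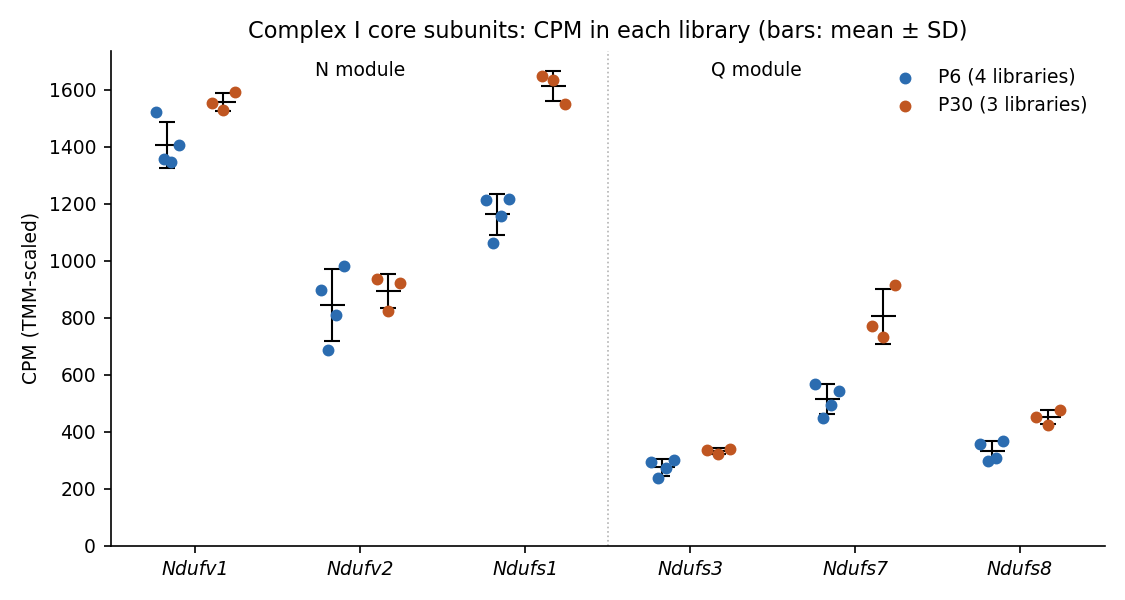
TMM-scaled CPM (vertical axis) of 6 nuclear core subunits in each library, P6 in blue and P30 in orange, with the mean and SD as bars. The P30 libraries lie above every P6 library for all subunits shown but Ndufv2.

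In the N module 1 of 3 core subunits was called, and 2 of 3 with the length trend removed. Ndufs1 (chr1:63143596-63176833), the large iron-sulfur subunit, had 1213, 1064, 1156 and 1217 CPM at P6 and 1650, 1636 and 1552 CPM at P30. These groups were well separated, and the rise was 1.39-fold (0.47 ± 0.08, adjusted p = 0.0008). Ndufv1 (chr19:4007384-4012806), which binds NADH and the flavin, had 1522, 1356, 1345 and 1408 CPM at P6 and 1553, 1530 and 1592 CPM at P30. Its groups just failed to overlap, and the difference did not pass the test (0.15 ± 0.08, adjusted p = 0.13). Ndufv1 was called higher with the length trend removed (0.29 ± 0.07, adjusted p = 0.005). Ndufv2 (chr17:66078638-66101559), the iron-sulfur partner of Ndufv1, had 899, 688, 808 and 982 CPM at P6 and 935, 824 and 923 CPM at P30. The P30 values lay inside the P6 range, and no difference was called (0.08 ± 0.12, adjusted p = 0.58). Whether the N and Q modules differ in their change was not tested.

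Promoters were looked at because these Q module genes moved together. Windows of 250 bases before to 50 bases after the start, from RefSeq on GRCm38.p6, were found for 37 of the 41 genes, and not for Ndufa2, Ndufa4l2, Ndufb9 and Ndufs1. They were searched on both strands for short motifs known at genes of the respiratory chain. Windows of the 2 core subunits with the largest rise among those with a window are shown first, on the strand of the gene, with a match to the YY1 motif AAGATGGC (Ndufs7, chr10:80249199-80249498) and to the ETS or GABP motif CCGGAAG on the opposite strand (Ndufs8, chr19:3912725-3913024) in capitals:
Ndufs7: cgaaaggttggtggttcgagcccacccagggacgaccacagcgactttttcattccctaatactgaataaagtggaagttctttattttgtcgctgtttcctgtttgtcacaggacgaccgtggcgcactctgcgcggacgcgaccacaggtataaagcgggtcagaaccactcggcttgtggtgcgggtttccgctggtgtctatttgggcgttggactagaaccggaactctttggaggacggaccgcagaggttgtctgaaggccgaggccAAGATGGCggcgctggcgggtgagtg
Ndufs8: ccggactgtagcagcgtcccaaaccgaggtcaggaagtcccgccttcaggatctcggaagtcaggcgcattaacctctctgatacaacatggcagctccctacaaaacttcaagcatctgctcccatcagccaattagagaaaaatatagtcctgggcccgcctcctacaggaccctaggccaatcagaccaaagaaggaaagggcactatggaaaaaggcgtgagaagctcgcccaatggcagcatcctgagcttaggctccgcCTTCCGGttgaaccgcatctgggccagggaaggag
In Ndufs7 the match began 24 bases after the start, and in Ndufs8 15 bases after it.

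The YY1 motif was found in 7 of the 37 Nduf genes with a window (18.9%). It was in 5.2% of 8970 tested genes with a window and 3.2% of all 27025 genes with a window. A gene with more than 1 window was counted once, if any of them held the motif. The 7 genes were Ndufs7, Ndufa9, Ndufs4, Ndufs6, Ndufa3, Ndufb8 and Ndufc1, and in each the match lay on the strand of the gene, beginning 22 to 38 bases after the start. They did not share a direction: Ndufs7 and Ndufa9 rose, Ndufa3 and Ndufc1 fell, and Ndufs4, Ndufs6 and Ndufb8 did not pass the test. The ETS or GABP motif was in 5 Nduf genes (13.5%), against 19.8% of tested genes and 9.9% of all genes with a window. Of these Ndufs3, Ndufs8 and Ndufaf1 rose, Ndufb7 fell and Ndufb6 did not pass the test. In the Q module gene Ndufs3 it was found on both strands. The NRF1 motif GCGCATGC was in 4 Nduf genes (10.8%, against 6.1% and 3.0%) and the ERR motif AAGGTCA in 3 (8.1%, against 3.8% and 5.4%). No motif contains another. A match describes the letters only.

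Among the 9 accessory subunits of the matrix arm 1 rose, 1 fell and 7 did not pass the test, with a median of -0.23, against 26.3% higher and 27.8% lower of all tested genes. With the length trend removed 7 were higher and 1 lower, against 27.9% and 26.8% of all tested genes, and the median turned to 0.35. Ndufa9, which sits against the Q module and binds NADPH, had 800, 665, 755 and 825 CPM at P6 and 994, 1032 and 1061 CPM at P30. It rose 1.35-fold with no overlap (0.43 ± 0.09, adjusted p = 0.0029), a change of the size seen in the core subunits it adjoins. Ndufv3, a small subunit of the N module, went the other way, from 330, 234, 264 and 398 CPM to 227, 165 and 214 CPM. All P30 libraries were below all P6 libraries, by little in the case of P6b (-0.60 ± 0.18, adjusted p = 0.02), and the call was lost without P30b (adjusted p = 0.082). The other 7, among them Ndufs4 and Ndufs6, ranged from -0.37 (Ndufa2) to 0.22 (Ndufs4) with overlapping CPM.

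Among the accessory subunits of the membrane arm 1 of 18 rose and 7 fell, against 26.3% and 27.8% of all tested genes, and the median was -0.29. With the length trend removed 8 were higher and 3 lower, against 27.9% and 26.8% of all tested genes, with a median of 0.08. With library totals 0 were higher and 10 lower, against 19.2% and 37.1%. Ndufa10, a large subunit with the fold of a nucleoside kinase, was the one that rose, from 927, 773, 849 and 909 CPM to 1137, 1077 and 1116 CPM (0.36 ± 0.09, adjusted p = 0.0057). Its P30 libraries were all above its P6 libraries, and with library totals the call was lost (0.18, adjusted p = 0.06). Ndufa3 (chr7:3617373-3620327), a short single-span membrane subunit, had the lowest log2 fold change of the subunits in this fit, from 359, 229, 265 and 440 CPM at P6 to 194, 120 and 165 CPM at P30. The P6 libraries spread widely but did not overlap with P30, and the fall was 2.02-fold (-1.02 ± 0.23, adjusted p = 0.0049). The fall was smaller with the length trend removed (-0.32 ± 0.11, adjusted p = 0.037), and Ndufb2, Ndufc1 and Ndufv3 then had lower values.

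Ndufc1 (chr3:51404677-51408988) and Ndufc2, small neighbouring subunits of the membrane arm, both fell. Ndufc1 had 321, 204, 232 and 376 CPM at P6 and 190, 132 and 166 CPM at P30 (-0.80 ± 0.21, adjusted p = 0.01). Ndufc2 had 347, 232, 323 and 435 CPM at P6 and 184, 170 and 224 CPM at P30 (-0.79 ± 0.19, adjusted p = 0.0061). In both the groups were separated by a narrow gap between P6b and the highest P30 library. The falls of Ndufa3, Ndufc1 and Ndufc2 were called whichever library was left out. With the length trend removed Ndufc1 was still called (-0.54 ± 0.17, adjusted p = 0.021), and Ndufc2 was not (-0.25 ± 0.10, adjusted p = 0.061).

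The promoter windows of Ndufa3 (chr7:3617123-3617422) and Ndufc1 (chr3:51408906-51409205) are shown because these genes fell and yet hold the same YY1 letters, in capitals, as Ndufs7, which rose:
Ndufa3: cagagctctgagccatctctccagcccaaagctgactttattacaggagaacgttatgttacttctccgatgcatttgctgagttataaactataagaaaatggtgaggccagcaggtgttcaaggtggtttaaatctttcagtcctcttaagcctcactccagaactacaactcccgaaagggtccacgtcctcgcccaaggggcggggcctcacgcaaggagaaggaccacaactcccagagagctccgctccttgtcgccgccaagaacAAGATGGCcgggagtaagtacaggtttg
Ndufc1: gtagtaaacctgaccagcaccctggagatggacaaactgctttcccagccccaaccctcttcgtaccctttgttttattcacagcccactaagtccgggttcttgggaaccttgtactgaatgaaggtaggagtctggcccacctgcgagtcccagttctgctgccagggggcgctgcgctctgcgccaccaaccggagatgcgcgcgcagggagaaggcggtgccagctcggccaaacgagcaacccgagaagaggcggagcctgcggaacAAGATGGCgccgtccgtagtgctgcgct
In both the match began 22 bases after the start.

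Ndufb7, a subunit on the intermembrane side, had 431, 308, 335 and 435 CPM at P6 and 278, 231 and 292 CPM at P30 (-0.50 ± 0.14, adjusted p = 0.015). Ndufb11, a single-span subunit encoded on the X chromosome, had 497, 347, 394 and 503 CPM at P6, and at P30 it had 336, 282 and 347 CPM (-0.44 ± 0.14, adjusted p = 0.027). Neither overlapped between the ages, but in Ndufb11 P6b and P30c came to the same rounded value. The call of Ndufb7 was lost without P30b (adjusted p = 0.069) and that of Ndufb11 without P6a, P6d, P30a or P30b (up to 0.11). Ndufb2 (-0.54 ± 0.19, adjusted p = 0.034) and Ndufa13 (-0.40 ± 0.15, adjusted p = 0.05, just under the threshold) completed the 7 falls. Both had overlapping CPM, and the call was lost in Ndufb2 without any 1 of 5 libraries and in Ndufa13 without any 1 of 4. Exons of Tssk6 on the opposite strand cover 30.0% of those of Ndufa13, and no strand setting is given for the counts.

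The other 10 tested subunits of the membrane arm did not pass the test and ranged from -0.39 (Ndufb4) to 0.33 (Ndufb5). The most counted of the class was Ndufb9, with 1194, 937, 1001 and 1291 CPM at P6 and 1180, 1015 and 1181 CPM at P30, and its groups overlapped (0.03 ± 0.12, adjusted p = 0.87). It was called higher with the length trend removed (0.55 ± 0.06, adjusted p = 6.6e-05). Ndufab1, the mitochondrial acyl carrier protein present in both arms, was at 149 ± 28 CPM at P6 and 130 ± 9.76 CPM at P30 (-0.20 ± 0.14, adjusted p = 0.25). Pseudogenes nearly identical to parts of Ndufab1 and Ndufb4 exist, so those counts are uncertain.

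Ndufs5 could not be tested. It had 0 counts in every library but P30b, which had 1. A processed pseudogene of it, BC002163, matches 46.9% of its transcript at 99.4% identity and had 800, 129, 306 and 109 counts at P6 and 93, 80 and 439 at P30. Reads of the gene may have been assigned to that copy or dropped, so the level of Ndufs5 is uncertain.

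Ndufa4, named as a complex I subunit but now placed in cytochrome c oxidase, had 1309, 920, 1039 and 1504 CPM at P6 and 1011, 783 and 1049 CPM at P30. The ages overlapped and the test was not passed (-0.33 ± 0.17, adjusted p = 0.13). Ndufa4 was called lower with library totals (-0.51, adjusted p = 0.02) and higher with the length trend removed (0.27 ± 0.07, adjusted p = 0.0074). Its paralogue Ndufa4l2, known as a hypoxia-induced gene, stayed at or below 1.16 CPM in every library (0.82 ± 0.40, adjusted p = 0.11). At this low level it was called higher with the length trend removed (1.19 ± 0.38, adjusted p = 0.025).

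The 4 assembly factors named Ndufaf moved apart. Ndufaf1, part of the assembly complex for the membrane arm, had 96.7, 80.3, 93.9 and 95.2 CPM at P6 and 112, 111 and 128 CPM at P30. Its groups did not overlap and it rose 1.28-fold (0.36 ± 0.10, adjusted p = 0.012), a call lost without P30c (adjusted p = 0.056) and with library totals (0.18, adjusted p = 0.11). Ndufaf3, which acts with Ndufaf4 on the early Q module intermediate, had 33.4, 27.4, 30.8 and 38.0 CPM at P6 and 39.9, 37.3 and 48.3 CPM at P30. P30b lay just below P6d, and the call (0.37 ± 0.14, adjusted p = 0.043) was lost without P6a, P6b, P6c, P30a or P30c (up to 0.17) and with library totals (0.19, adjusted p = 0.22).

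Its partner Ndufaf4 pointed down without passing the test, with 121, 88.4, 137 and 154 CPM at P6 and 90.3, 79.8 and 106 CPM at P30 (-0.44 ± 0.18, adjusted p = 0.06). Without P6b or P30c it passed (adjusted p down to 0.0047). Ndufaf4 was also called lower with library totals (-0.62, adjusted p = 0.01) and by DESeq2's Wald test (-0.42, adjusted p = 0.046). Ndufaf2 (chr13:108002715-108158623), a factor of the late stage of assembly, fell most of all Nduf genes, from 18.1, 15.5, 22.9 and 28.8 CPM to 10.8, 9.18 and 7.44 CPM. The groups did not overlap, the fall was 2.32-fold (-1.21 ± 0.23, adjusted p = 0.0016) and it was called whichever library was left out. A lincRNA gene on the opposite strand covers 65.6% of the exons of Ndufaf2.

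Ndufaf5 to Ndufaf8 stand in the table under older symbols, outside the rule on names, and were looked up after the table was seen. None of these 4 passed the test. Their log2 fold changes were 0.09 for 2310003L22Rik (Ndufaf5), 0.23 for 2310030N02Rik (Ndufaf6), -0.24 for 2410091C18Rik (Ndufaf7) and 0.07 for 1810043H04Rik (Ndufaf8). Of the 4, 3 were called higher and 0 lower with the length trend removed (median 0.45), against 27.9% and 26.8% of all tested genes. Library totals gave 0 higher and 1 lower, against 19.2% and 37.1%.

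Counts shifted within the 41 Nduf genes towards the core, with Ndufa4, Ndufa4l2 and the assembly factors in the total and no correction for length. The 41 genes held 1.89% ± 0.245 of all counts at P6 and 1.68% ± 0.0954 at P30 (SD, n = 4 and 3), with overlap. Of these Nduf counts, the core subunits took 24.8, 27.5, 26.3 and 23.1% in the P6 libraries and 30.4, 33.1 and 30.5% in the P30 libraries. Every P30 library was thus above every P6 library. The share of the 3 Q module core subunits went from 6.26% ± 0.339 to 8.78% ± 0.41 and that of the N module core subunits from 19.2% ± 1.56 to 22.5% ± 1.40, both without overlap. Accessory subunits of the membrane arm fell from 48.4% ± 0.785 to 44.2% ± 0.985, and those of the matrix arm were at 17.3% ± 0.699 and 17.1% ± 0.115, with overlap. These shares add up within a library, so a larger share of 1 class lowers the others.

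**Figure D3:**
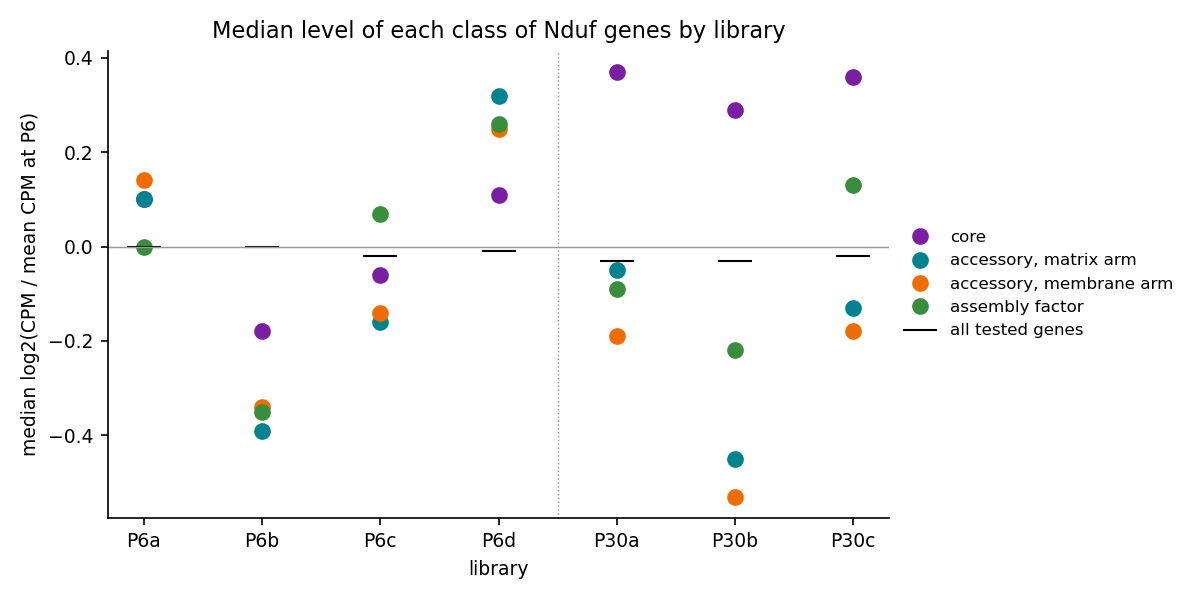
The median over the genes of a class of log2(CPM over the mean CPM at P6), on the vertical axis, in each of the 7 libraries, with the median of all tested genes as a dash. The core is at -0.18 to 0.11 at P6 and 0.29 to 0.37 at P30, while the accessory classes overlap between the ages, with P6b and P30b lowest.

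The libraries of 1 age differed in the accessory subunits more than in the core. The median of the membrane arm subunits against their P6 mean was 0.14, -0.34, -0.14 and 0.25 in the P6 libraries and -0.19, -0.53 and -0.18 in the P30 libraries. P6b was therefore below P30a and P30c. For the core the same values were 0.10, -0.18, -0.06 and 0.11 at P6 and 0.37, 0.29 and 0.36 at P30, with a gap between the ages.

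Transcript length moved with these differences. Over the 12437 tested genes with an annotated length, short transcripts were lower at P30. The trend (log2, P30 minus P6) was -0.69 at 500 bases, -0.33 at 1000 bases and 0.07 at 5000 bases. At 500 bases P6d stood at 0.64 and P6b at -0.04. The tested accessory subunits had a median transcript length of 892 bases and the core subunits 1354 bases. Across the 40 tested Nduf genes length and log2 fold change had a Spearman correlation of 0.32, and across the 28 accessory subunits 0.20, given as a description of genes that share the same libraries.

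**Figure D4:**
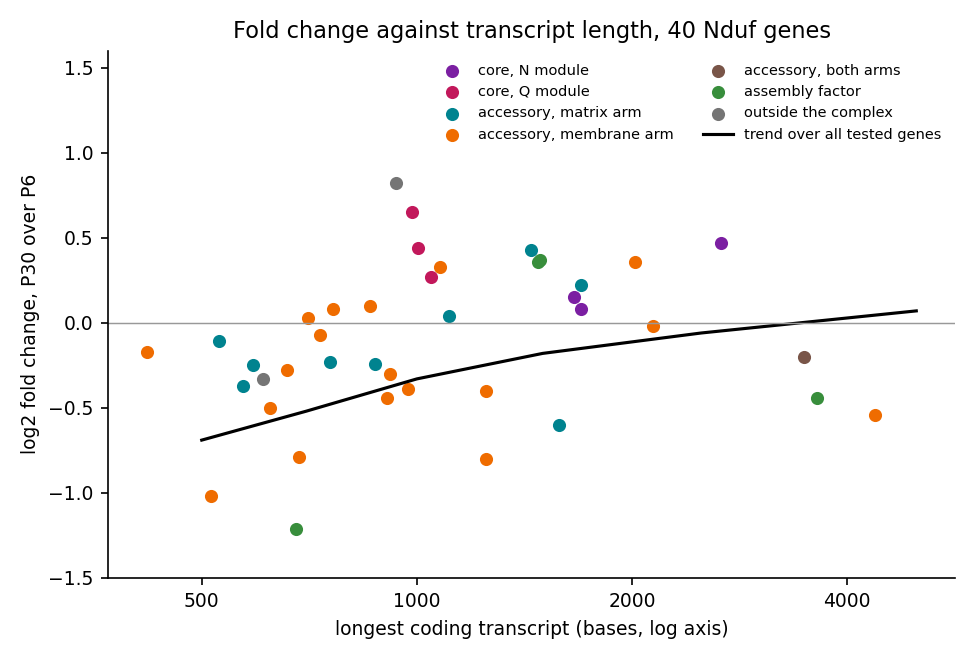
The log2 fold change (P30 over P6) of each tested Nduf gene against the length of its longest coding transcript (log axis). The line is the trend over tested genes with an annotated length. The core subunits lie above the line, as do most short accessory subunits, and Ndufa3, Ndufc1, Ndufc2, Ndufv3, Ndufb2 and Ndufaf2 are among those below it.

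With this trend taken out of each library, 29 of the 40 tested Nduf genes had a log2 fold change above 0, against 17 without it and 11 with library totals. Ndufs7 (0.99 ± 0.07) and Ndufs8 (0.78 ± 0.06) were among the largest of these rises. The falls of Ndufa3 (-0.32 ± 0.11), Ndufc1 (-0.54 ± 0.17), Ndufb2 (-0.57 ± 0.19), Ndufv3 (-0.43 ± 0.15) and Ndufaf2 (-0.66 ± 0.20) were still called, but the number of Nduf genes called lower in this fit went from 5 to 1 without P6a or P30b and to 2 without P6d or P30c. Those of Ndufc2, Ndufb7, Ndufb11 and Ndufa13 were not, and Ndufb7 changed sign (0.09 ± 0.07).

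Classes were also set side by side at like length. Between 800 and 1300 bases, the core subunits Ndufs3, Ndufs7 and Ndufs8 had a median of 0.44 and all 3 were higher at P30. The 9 accessory subunits in that range had a median of -0.30, reaching up to 0.33 (Ndufb5) above the lowest core value of 0.27 (Ndufs3), with 0 higher and 3 lower, and all 593 tested genes of that length with a mean of at least 10 CPM had a median of -0.25, with 97 higher and 254 lower. These are counts, and the difference between the classes was not tested.

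Levels can be compared between genes only per length. Per kilobase of the longest coding transcript the median of the core subunits was 467 CPM per kilobase at P6 and 567 at P30, and that of the membrane arm accessory subunits 501 and 425. By this length, among the tested core and accessory subunits described, Ndufb9 was highest at both ages (1571 and 1599 CPM per kilobase), and of the core Ndufv1 was highest (848 and 938). By the principal transcript Ndufb8 was highest at P6 (1626) and Ndufs7 was the highest of the core at P30 (1063). Ndufab1 (43.0 at P6) and Ndufb4 (35.9 at P30) were the lowest of these subunits. Ndufab1 and Ndufb2 have long annotated transcripts, of 3479 and 4371 bases, and the level depends on which transcript the cells make.

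**Figure D5:**
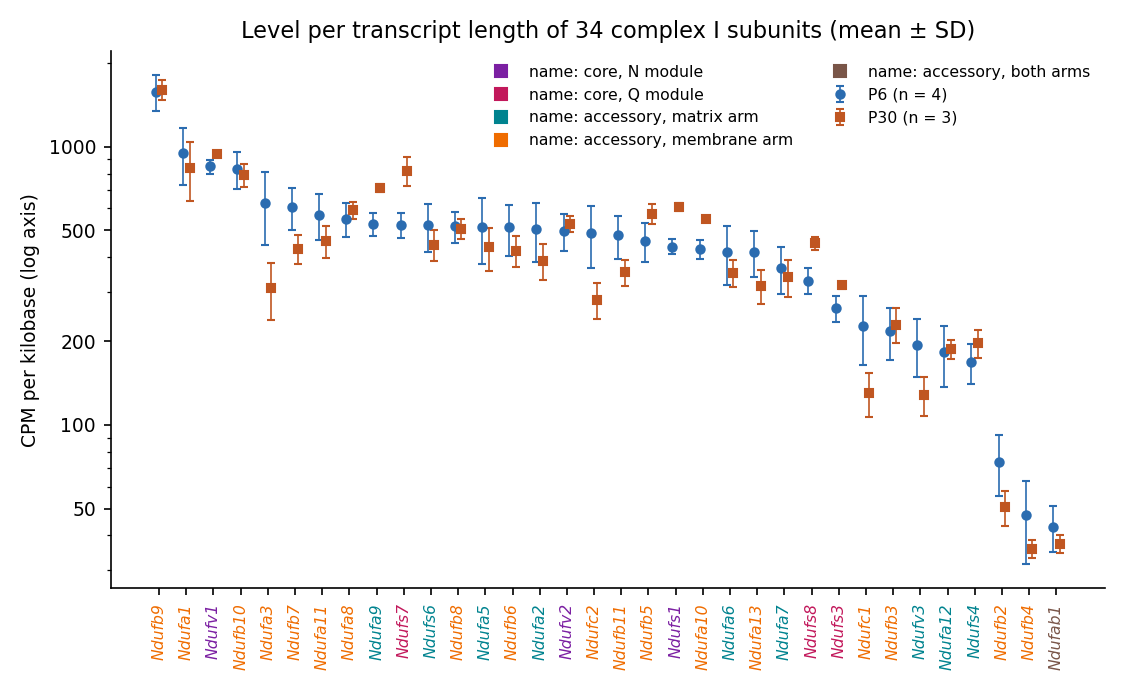
Mean CPM per kilobase of the longest coding transcript (log axis) with bars of 1 SD, for core and accessory subunits in the order of their P6 level, P6 as blue circles and P30 as orange squares. Ndufs7 and Ndufs1 stand higher at P30, while Ndufa3, Ndufc1 and Ndufc2 stand lower.

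Genes that help to make, feed or drain complex I were counted from lists written from general knowledge. Of 11 assembly factors without the Nduf prefix 3 rose and 1 fell. Ecsit, a partner of Ndufaf1, rose from 101 ± 7.74 to 152 ± 2.39 CPM (0.59 ± 0.08, adjusted p = 0.00034), and Foxred1, an oxidoreductase needed for assembly, from 158 ± 5.75 to 210 ± 3.57 CPM (0.41 ± 0.07, adjusted p = 0.0013). Tmem186 rose as well. 3110001D03Rik (Dmac1) fell (-0.49 ± 0.15, adjusted p = 0.018), a call lost without P30a or P30b and with the length trend removed (-0.01 ± 0.10, adjusted p = 0.97). Acad9, which works in the same complex as Ecsit, was at 108 CPM at both ages (0.00 ± 0.08). The share of this list that rose was close to the 26.3% of all tested genes, and the share that fell was below the 27.8%. Taking out the length trend gave 4 higher and 0 lower, against 27.9% and 26.8% of all tested genes. Library totals gave 3 higher and 2 lower, against 19.2% and 37.1%.

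Of 16 genes of iron-sulfur cluster synthesis and delivery 4 rose and 1 fell. The share that rose was again close to the 26.3% of all tested genes, and the share that fell again below the 27.8%. With library totals 2 rose and 4 fell, against 19.2% and 37.1% of all tested genes. Taking out the length trend gave 8 higher and 1 lower, against 27.9% and 26.8% of all tested genes. Nfs1, the desulfurase that supplies the sulfur, rose from 136 ± 3.80 to 218 ± 6.30 CPM (0.68 ± 0.07, adjusted p = 6.1e-05), and Hspa9, the chaperone that transfers the clusters, from 889 ± 77.7 to 1211 ± 39.6 CPM (0.45 ± 0.09, adjusted p = 0.0021). Nfu1, a late carrier of clusters to complexes I and II, fell (-0.57 ± 0.13, adjusted p = 0.0054).

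Ubiquinone synthesis and the other routes of NADH were counted beside 26.3% higher and 27.8% lower of all tested genes. These shares were 19.2% and 37.1% with library totals, and 27.9% and 26.8% with the length trend removed. Of 13 ubiquinone genes 8 rose and 2 fell, with a median of 0.46, and with library totals 5 rose and 2 fell. Taking out the length trend gave 10 higher and 2 lower. Adck3 (Coq8a), an atypical kinase of the pathway, rose from 1017, 1008, 831 and 799 CPM to 1847, 1857 and 1637 CPM (0.96 ± 0.11, adjusted p = 7.9e-05), and Coq9, a lipid-binding member, from 486, 446, 503 and 492 CPM to 915, 967 and 964 CPM (0.98 ± 0.08, adjusted p = 1.1e-05). Coq10b and Adck4 (Coq8b) fell. Of 11 genes of other NADH routes 8 rose and 1 fell, with a median of 0.33, and with library totals 5 rose and 1 fell. Taking out the length trend gave 9 higher and 1 lower. Mdh1, of the malate-aspartate shuttle, rose (0.33 ± 0.10, adjusted p = 0.018), as did Slc25a11, which carries its oxoglutarate (0.78 ± 0.08, adjusted p = 3.8e-05), and Gpd2, of the glycerol phosphate shuttle, fell (-0.43 ± 0.11, adjusted p = 0.0076).

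Succinate dehydrogenase, another entry to ubiquinone, rose in its catalytic subunits. Of its 8 listed genes, assembly factors included, 3 rose and 0 fell, the third being the assembly factor Sdhaf2, against 26.3% and 27.8% of all tested genes. With library totals 3 rose and 3 fell, against 19.2% and 37.1%. With the length trend removed 4 rose and 0 fell, against 27.9% and 26.8%. Sdha, which holds the flavin, rose from 2568, 2615, 2884 and 2790 CPM to 4386, 4125 and 3511 CPM (0.56 ± 0.09, adjusted p = 0.00074), and Sdhb, which holds the iron-sulfur clusters, from 1088, 988, 1139 and 1303 CPM to 1837, 1790 and 1846 CPM (0.69 ± 0.10, adjusted p = 0.0003). The membrane anchors Sdhc (-0.23 ± 0.11, adjusted p = 0.1) and Sdhd (-0.16 ± 0.09, adjusted p = 0.17) did not pass the test. Nuclear subunits of complexes III to V, with a median transcript length of 738 bases, gave 5 higher and 12 lower of 37. Their median log2 fold change was -0.29. The share higher was below the 26.3% of all tested genes, and the share lower was near the 27.8%. These subunits gave 20 higher and 4 lower with the length trend removed, against 27.9% and 26.8% of all tested genes. With library totals they gave 1 higher and 21 lower, against 19.2% and 37.1%. The accessory subunits of complex I, at -0.24, were thus close to the subunits of the later complexes.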

How the data were processed

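Polyadenylated RNA from sorted cardiomyocytes was amplified with SMART-Seq v4 and made into Nextera XT libraries, per the labels' protocols. The authors deposited whole-number counts of reads by gene. Per the submitters' processing notes the tools were STAR 2.5.3a, CASAVA 1.8 and Subread 1.5.2 (featureCounts) and the build mm10. The annotation, the strand setting and the rule for multi-mapping reads were not given in the sources used here. A deposited table of the authors' own comparison was not used. The 7 count columns carry letters that the labels tie to no title number, so each was assigned to an age by its name alone.

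Counts were fitted in R 4.3.3 with edgeR 4.0.16 (filterByExpr, TMM factors, quasi-likelihood F test, age as the only term) and adjusted over 12561 tested genes. SE is the absolute log2 fold change over the square root of F. DESeq2 1.42.0, library totals, no filter and each library left out were alternatives. For the length fit, the mean of each gene over the libraries was subtracted from its log2 CPM. A lowess trend (span 0.3) of this deviation on the log2 length of the longest coding transcript (GENCODE release M21, GRCm38) was fitted per library. Centred on its median, the trend was taken out as an offset for the 12437 tested genes with a length. Of 23337 rows, 20953 matched by symbol and 1918 by an older symbol. Scripts were tested on simulated data. Promoter windows came from RefSeq (GRCm38.p6).

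The members and lists were chosen with earlier results of these data known. One further gene that the rule on symbols finds is not reported here, and class counts leave it out, though it stayed in every fit. Named were the other core subunits, the 3 largest called rises and falls of each other class with a mean of at least 10 CPM, its most counted member and its called members without overlap, Ndufa4, Ndufa4l2, Ndufab1 and Ndufs5, and up to 2 called members a direction of each list; Ndufb2, Ndufa13, other list members and the ends of ranges were named after their values were seen.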

Additional observations from a re-analysis of the deposited data

Results flagged for a closer look

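Ndufaf1 in P6b, at 80.3 CPM, was the lowest of the 4 P6 libraries and stood apart from the other 3, which had 93.9 to 96.7 CPM: its gap to the nearest, as a share of the whole range, was just past Dixon's critical value for 4 samples. With 40 Nduf genes examined at P6, chance flags about 1 in 20 such groups.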

How the results depend on the processing

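No paired analysis was possible because the count columns carry letters that match no replicate number of the labels. Library totals gave 4 Nduf genes higher and 18 lower, 1 accessory subunit higher and 15 lower, and medians of 0.18 for the core and -0.22 for the assembly factors. Over all tested genes, library totals gave 19.2% higher and 37.1% lower, and the length trend removed 27.9% and 26.8%. The length trend removed gave 24 and 5 Nduf genes, 15 and 4 accessory subunits, and medians of 0.55 (core), 0.35 (matrix arm), 0.08 (membrane arm) and 0.04 (assembly factors), the last 3 of opposite sign to the values without it. With principal transcripts in that trend, an alternative chosen after seeing the data, 26 Nduf genes were higher, 17 accessory subunits were higher and 5 lower, and the medians were 0.53, 0.34, 0.28 and 0.03. Leaving out 1 library gave 5 (without P30c) to 9 Nduf genes higher and 4 (without P30b) to 16 (without P6b) lower, 3 to 13 accessory subunits lower (5 without P6a, P6d or P30a), 3 to 4 core subunits higher, a core median of 0.29 to 0.40 and an assembly factor median of -0.15 to 0.03, above 0 without P6d (0.02) and P30b (0.03). With the length trend removed, leaving out 1 library, also chosen after seeing the data, gave 20 to 25 higher and 1 to 7 lower.

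Of the genes named by rule, these changed sign, and of them Ndufb7 alone had been called. With library totals Ndufb9 was at -0.15, Ndufv1 at -0.03 and Ndufv2 at -0.09. With the length trend removed Ndufa4 was at 0.27 (0.23 with principal transcripts) and Ndufb7 at 0.09 (0.05). With 1 library left out Ndufb9 ran from -0.05 to 0.10, below 0 without P6b, P6c, P30a or P30c, and Ndufv2 from -0.01 (without P6b) to 0.16. The cause was not tested. DESeq2 gave 9 Nduf genes higher and 10 lower, its size factors in edgeR 9 and 8, and no filter on low counts 8 and 10. Per kilobase of all exons in place of the longest coding transcript, the core median at P30 was 383, and Ndufb9 was highest at 1092. Low counts limit Ndufs5 and Ndufa4l2 alone among these genes, and 3 counts correspond to 0.0553 to 0.271 CPM. For Ndufs5 this need not be depth, since its reads may have been assigned to its copy or dropped.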
